A study of Mus musculus with 12 samples.

Results

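The genes described here carry out MHC class II antigen presentation: Ciita, H2-Aa, H2-Ab1, H2-Eb1, Cd74, H2-DMa, H2-Ob and Ctss. They were chosen by name, as the probe sets of the array that are annotated with 1 of these 8 symbols. Of 22626 probe sets, 12 carried a member's symbol, and 7 of the 8 genes had a probe set of their own and entered the fit of 12393 genes. H2-Ob was read only by a probe set that is also annotated to Gm20506, so its values cannot be given to H2-Ob alone. Whole-liver RNA of female C57BL/6 mice, 8 to 12 weeks old, was hybridised to 12 Affymetrix Mouse430A arrays, which read a transcript with a set of short probes. There were 4 groups of 3 arrays: knockout of HDAC6, knockout of HDAC9, wild type fed a high-fat diet (60% of kcal from fat), and wild type fed chow (25%). HDAC6 and HDAC9 belong to the histone deacetylase family, named for enzymes that take acetyl groups off histones and other proteins. The activity of neither protein was measured here. The labels give no diet for the knockout mice, do not say how the alleles were made, and do not say that each replicate is a separate mouse, so a p-value here measures only a spread between samples that may be technical.

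MHC class II molecules are pairs of an alpha and a beta chain that show peptides from engulfed proteins to CD4+ T cells. In liver they are known from Kupffer cells (the resident macrophages), dendritic cells, B cells and the sinusoidal endothelium, while hepatocytes have little of them at rest. Ciita, the class II transactivator, is the switch of the set: interferon-gamma induces it, and it binds no DNA itself but docks on factors held at the X and Y boxes before class II genes. The chains are made with the invariant chain Cd74, which blocks the groove; cathepsin S (Ctss) trims Cd74, H2-DM removes the remaining piece, and H2-O holds H2-DM back.

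The X and Y boxes can be read in the promoters of the genes below. They are shown as the sequence that Ciita's partners are known to bind; no value below was tested against them. Windows of 5 members from RefSeq's promoter table (build GRCm38.p6) were searched: H2-Aa, H2-Eb1, H2-Ob, H2-DMa and Ctss. Cd74 was left out of this search by choice, so nothing is said here of its promoter. Ciita and H2-Ab1 had no window available. The share of all windows given below is thus no test of the members. The bases GCAAC (part of the X box) and GATTGG (the Y box, an inverted CCAAT) were searched on both strands in the 250 bases before each start. The order GCAAC and then GATTGG on 1 strand, with 15 to 35 bases between, was present in H2-Aa with 27 bases between, in H2-Eb1 with 26 and in H2-Ob with 24. Of 32851 promoter windows in the table, 0.326% held that pair, 29.9% held GCAAC and 14.6% held GATTGG. Capitals mark the 2 pieces in the 130 bases just before each start, written 5′ to 3′ on the strand of the gene.
H2-Aa (chr17:34287824-34287953, minus strand): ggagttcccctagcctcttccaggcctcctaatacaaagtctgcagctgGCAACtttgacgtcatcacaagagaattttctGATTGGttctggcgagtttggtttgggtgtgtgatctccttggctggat
H2-Eb1 (chr17:34305737-34305866, plus strand): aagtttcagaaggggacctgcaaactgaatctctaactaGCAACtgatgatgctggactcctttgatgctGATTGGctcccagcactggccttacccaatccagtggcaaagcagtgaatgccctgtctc
H2-Ob (chr17:34238775-34238904, plus strand): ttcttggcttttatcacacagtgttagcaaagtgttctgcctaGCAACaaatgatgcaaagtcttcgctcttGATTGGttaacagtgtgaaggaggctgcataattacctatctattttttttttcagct
H2-DMa had 2 windows, 1 with GCAAC alone and 1 with GATTGG alone, and the Ctss window held neither string. These matches are letters in a window; no binding was measured.

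Of the 12 arrays, 2 stood apart from the rest. Chow replicate 2 had 115 probe sets more than 2-fold below all the other arrays, against 0 to 4 on each other array, and 0 above. They belonged to 104 genes with 1 symbol, 98 of which had another probe set, and 197 of the 204 other probe sets lay within 2-fold of their median. None of the 115 carried a member's symbol. Cd74, H2-Aa, H2-Eb1, H2-DMa and Ctss read higher on this array than on the other chow arrays. Whether those values and the low probe sets are linked was not tested. HDAC9 knockout replicate 2 had 51 probe sets more than 2-fold above all others. Its list of exocrine pancreas markers had a median 3.72 above its own mean on the log2 scale, against -0.64 to 0.33 on the other arrays. The members' medians against chow, and those of the HDAC9 knockout, are given with and without these arrays. The array medians lay between 5.78 and 5.86, and the mean level of 8 hepatocyte markers between 13.06 and 13.29. Hdac6 itself read 6.17, 6.16 and 6.50 in HDAC6 knockout livers, against 7.89, 7.98 and 7.86 in chow livers. The Hdac9 probe set read 4.04 to 4.53 on all 12 arrays and gave no check of its knockout. The scale has no fixed zero: 9 genes of retina and sperm, which liver is not known to use, averaged 2.67 to 6.93 with a median of 4.19. Prm1 alone gave the top value, and the next highest, Prm2, averaged 4.55.

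Ciita was higher in all 3 groups than in chow livers on the probe set that stood for it, without passing the test in any of them. It read 5.05, 5.22 and 5.40 in HDAC6 knockout livers, 5.06, 4.68 and 4.92 in HDAC9 knockout livers, 5.08, 5.12 and 4.93 in high-fat livers, and 4.64, 4.67 and 4.65 in chow livers. Every array of the other groups lay above every chow array, HDAC9 knockout replicate 2 only narrowly. The chow arrays were close together (4.65 ± 0.014, mean ± SD, n = 3), against 5.22 ± 0.175 in the HDAC6 knockout, 4.89 ± 0.196 in the HDAC9 knockout and 5.04 ± 0.102 in the high-fat group (n = 3 each). These levels lie within the range read by the 9 genes that liver is not known to use, but only through Prm1 (6.93). The next highest of the 9, Prm2, averaged 4.55, below every array of Ciita on this probe set. The second Ciita probe set overlapped between groups: it averaged 4.61 ± 0.495 in HDAC6 knockout, 4.40 ± 0.220 in HDAC9 knockout, 4.42 ± 0.080 in high-fat and 4.25 ± 0.245 in chow livers (SD, n = 3 each).

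The class II chains H2-Aa, H2-Ab1 and H2-Eb1 varied widely within the groups. H2-Aa, the alpha chain of the I-A molecule, read 9.82, 9.94 and 10.34 in HDAC6 knockout livers, 9.89, 8.54 and 9.03 in HDAC9 knockout livers, 10.10, 9.38 and 9.88 in high-fat livers, and 8.98, 10.20 and 8.99 in chow livers. The chow group held 2 low arrays and a high one, and the HDAC9 knockout group a high array and 2 low ones. H2-Ab1, the beta chain of I-A, read 8.51, 8.60 and 8.90 in HDAC6 knockout livers, 8.60, 7.45 and 7.72 in HDAC9 knockout livers, 8.31, 7.91 and 8.49 in high-fat livers, and 7.78, 8.77 and 7.65 in chow livers. All 3 HDAC6 knockout arrays lay above all 3 high-fat arrays, narrowly (8.51 against 8.49 at the closest), and otherwise the groups overlapped. H2-Eb1, the beta chain of I-E, read 8.49, 8.60 and 9.05 in HDAC6 knockout livers, 8.50, 7.46 and 7.67 in HDAC9 knockout livers, 8.63, 7.95 and 8.42 in high-fat livers, and 7.71, 8.56 and 7.74 in chow livers. The same arrays were high and low for all 3 chains: HDAC6 knockout replicate 3 was the highest array, and HDAC9 knockout replicate 2 the lowest.

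The invariant chain Cd74 was high and low on the same arrays as the chains. It read 9.44, 9.71 and 10.06 in HDAC6 knockout livers, 9.76, 8.73 and 9.12 in HDAC9 knockout livers, 9.78, 9.21 and 9.66 in high-fat livers, and 8.89, 9.86 and 8.73 in chow livers. The spread within the chow group (SD 0.611, n = 3) and the HDAC9 knockout group (SD 0.521) was larger than within the HDAC6 knockout group (SD 0.309) and the high-fat group (SD 0.303). Around the group means, the residual SD of Cd74, H2-Aa, H2-Ab1 and H2-Eb1 was larger than that of 98.5% to 99.2% of the 12393 genes.

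H2-DMa, the alpha chain of the molecule that frees the groove of the Cd74 remnant, read 6.24, 6.32 and 6.59 in HDAC6 knockout livers, 6.33, 6.09 and 5.97 in HDAC9 knockout livers, 6.37, 6.12 and 6.43 in high-fat livers, and 6.00, 6.61 and 5.80 in chow livers. The groups overlapped, and chow replicate 2 was the highest of all arrays. Ctss, the protease that trims Cd74, read 9.91, 10.04 and 10.16 in HDAC6 knockout livers, 10.15, 10.13 and 9.99 in HDAC9 knockout livers, 10.05, 9.95 and 10.03 in high-fat livers, and 9.72, 10.13 and 9.56 in chow livers. HDAC9 knockout replicate 2, the lowest array for the chains, was among the higher ones for Ctss. The probe set shared by H2-Ob and Gm20506 read 4.14 to 4.57 over the 12 arrays, with group means of 4.34, 4.35 and 4.32 in HDAC6 knockout, HDAC9 knockout and high-fat livers and 4.40 in chow livers.

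**Figure D1:**
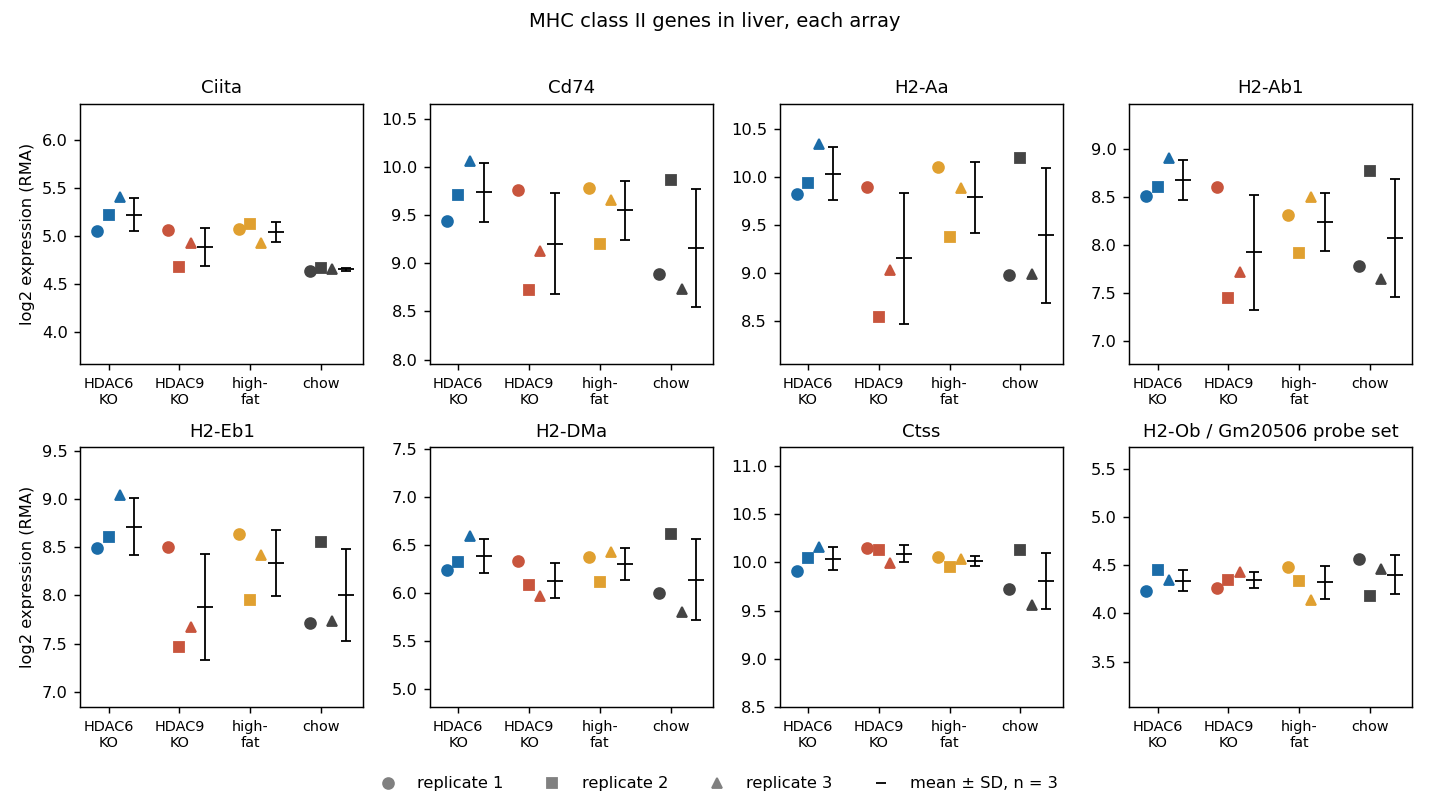
Log2 expression of the 7 class II genes with a probe set of their own and of the probe set shared by H2-Ob and Gm20506, by group (HDAC6 knockout, HDAC9 knockout, high-fat, chow), with a symbol for each array and bars for mean ± SD (n = 3). For H2-Aa, HDAC9 knockout replicate 2 reads 8.54 and chow replicate 2 reads 10.20, where chow replicates 1 and 3 read 8.98 and 8.99.

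In HDAC6 knockout livers the 7 measured members averaged higher than in chow livers (7 of 7, where 45.6% of all genes averaged higher), and 0 of 7 passed the test. The test was limma with Benjamini-Hochberg adjustment over all 12393 genes and a threshold of an adjusted p of 0.05, which 0.0161% of all genes passed (2 genes) in this comparison. The median log2 difference of the members was 0.57, against -0.01 over all genes. Ciita was 1.48-fold higher (log2 difference 0.57, SE 0.123, limma adjusted p = 0.292) and ranked 15th of all genes by p. H2-Eb1 was 1.64-fold higher (0.71, SE 0.275, limma adjusted p = 0.793), and these 2 members had an unadjusted p under 0.05, as did 5.77% of all genes. H2-Aa was higher by 0.64 (SE 0.338), H2-Ab1 by 0.60 (SE 0.296), Cd74 by 0.57 (SE 0.289), H2-DMa by 0.25 (SE 0.182) and Ctss by 0.24 (SE 0.125) on the log2 scale. Ciita alone had no overlap between the groups (all 3 higher), as 4.83% of all genes had. With 3 arrays against 3, an exact permutation test cannot give a p under 0.1.

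These differences depended on chow replicate 2. Without it, the members' median difference between HDAC6 knockout and chow livers was 0.92, with values from 0.40 for Ctss to 1.05 for H2-Aa. All 7 members then had an unadjusted p under 0.05, as 4.74% of all genes had. Of the 7, 0 passed the adjusted test (lowest limma adjusted p = 0.395), against 0.0242% of all genes. Leaving out chow replicate 3 instead gave a median of 0.39, with Cd74 at 0.36 and H2-DMa at 0.083. With probe sets of a shared suffix (_s_at, _x_at or _a_at) removed, 4 members were left (Ciita, H2-Eb1, H2-DMa and Ctss), and their median was 0.31. Cd74, whose only probe set ends in _a_at, dropped out, and Ciita was read by 1421210_at (0.36). On the probe set that stood for it, Ciita was at 0.58 without chow replicate 2 and at 0.57 with it.

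In HDAC9 knockout livers 3 members averaged higher than in chow livers and 4 lower, where 46% of all genes averaged higher, and 0 of 7 passed limma's test, which 0.0968% of all genes passed. Their median log2 difference was -0.0063. Ctss was 1.22-fold higher (log2 difference 0.29, SE 0.125, limma adjusted p = 0.787) and was the only member with an unadjusted p under 0.05, as 6.08% of all genes had. Ciita was higher by 0.23 (SE 0.123, limma adjusted p = 0.832) with no overlap, as 5.39% of all genes had in that direction. H2-Aa differed by -0.24 (95% interval -0.96 to 0.49), H2-Ab1 by -0.15 (-0.78 to 0.49), H2-Eb1 by -0.13 (-0.71 to 0.46) and Cd74 by 0.04 (-0.58 to 0.66). Without chow replicate 2 all 7 members averaged higher in the HDAC9 knockout (median 0.23); without HDAC9 knockout replicate 2, all 7 did too (median 0.088); and without both the median was 0.43. Without HDAC9 knockout replicate 1 the median was -0.24, and without chow replicate 3 it was -0.17. HDAC9 knockout replicate 2, the array highest in pancreas transcripts, was also the lowest for the class II chains. HDAC9 knockout replicate 1 had the next highest pancreas median (0.33) and the highest class II chains of its group. The part of those transcripts in the class II values was not tested.

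In wild-type livers on the high-fat diet the 7 members averaged higher than on chow, as 47.2% of all genes did, and 0 of 7 passed limma's test, which 0.29% of all genes passed. The median log2 difference was 0.33. Ciita was 1.31-fold higher (log2 difference 0.39, SE 0.123, limma adjusted p = 0.321), with no overlap, as 7.02% of all genes had in that direction. It was the only member with an unadjusted p under 0.05, as 8.48% of all genes had. H2-Aa was higher by 0.40 (SE 0.338), Cd74 by 0.39 (SE 0.289), H2-Eb1 by 0.33 (SE 0.275), Ctss by 0.21 (SE 0.125), H2-Ab1 by 0.17 (SE 0.296) and H2-DMa by 0.17 (SE 0.182). Without chow replicate 2 the median was 0.52, and 6 of 7 members had an unadjusted p under 0.05, as 7.17% of all genes had. Without chow replicate 3 the median was 0.17, and without chow replicate 1 or high-fat replicate 1 it was 0.19, as it was for the 4 members left when probe sets of a shared suffix were removed. The 3 comparisons with chow share the same 3 chow arrays, so their differences are not independent of each other.

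**Figure D2:**
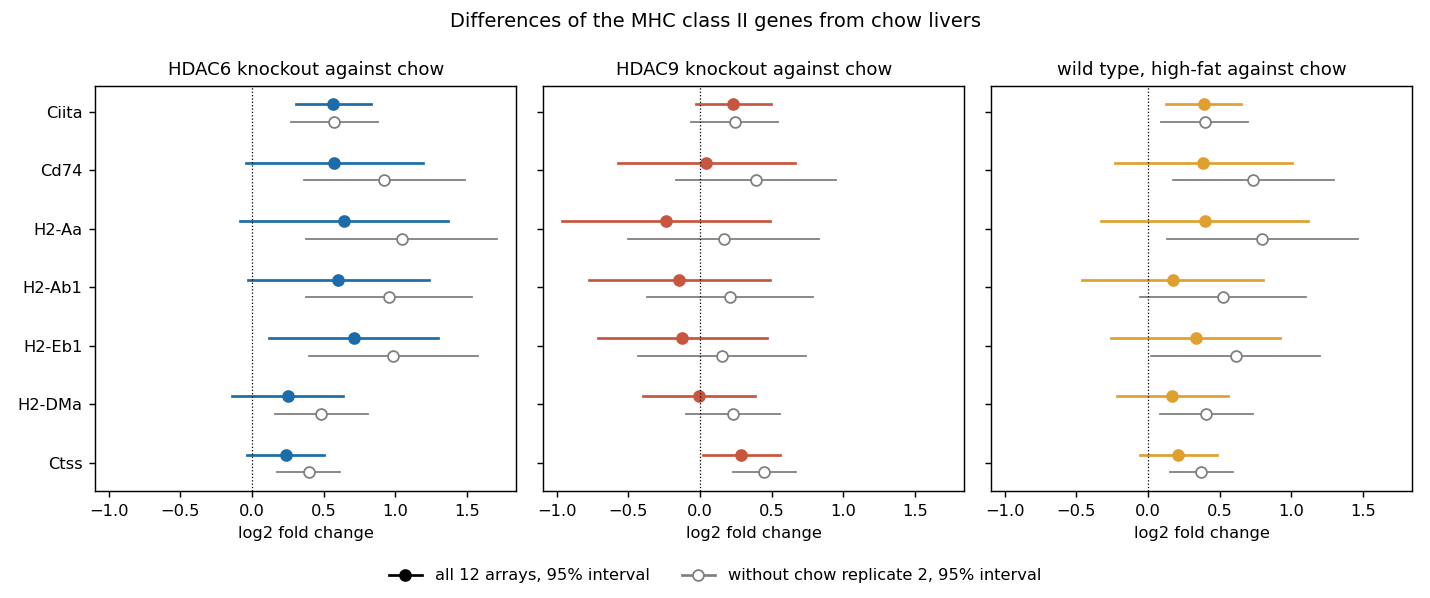
Log2 fold change of the 7 members against chow livers in the HDAC6 knockout, the HDAC9 knockout and the high-fat group, from all 12 arrays (filled) and without chow replicate 2 (open), with 95% intervals. In the HDAC6 knockout H2-Aa is at 0.64 with all arrays and at 1.05 without chow replicate 2, and in the HDAC9 knockout at -0.24 and 0.17.

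The comparisons among the knockout and high-fat groups use the chow arrays only for the shared estimate of the spread. HDAC9 knockout livers averaged lower than HDAC6 knockout livers for 6 of 7 members, with a median log2 difference of -0.53; 49.7% of all genes averaged higher. The differences were -0.88 for H2-Aa (SE 0.338), -0.83 for H2-Eb1 (SE 0.275), -0.75 for H2-Ab1 (SE 0.296), -0.53 for Cd74 (SE 0.289) and -0.34 for Ciita (SE 0.123), and Ctss differed by 0.05. Of the 7, 4 had an unadjusted p under 0.05, as 3.8% of all genes had, and 0 passed the adjusted test, which 0.00807% of all genes passed (1 gene). The limma adjusted p was 0.9998 for every member. Without HDAC9 knockout replicate 2 the median was -0.29 and 1 member had an unadjusted p under 0.05, as 2.97% of all genes had. Without HDAC9 knockout replicate 1 the median was -0.81, and for the 4 members left after removing shared-suffix probe sets it was -0.23. High-fat livers averaged lower than HDAC6 knockout livers for 7 of 7 members (median -0.19), where 52.1% of all genes averaged higher. H2-Ab1 had no overlap on the probe set that stood for it (-0.43, SE 0.296, limma adjusted p = 0.845), as 6.54% of all genes had in that direction. The members' median was -0.044 without high-fat replicate 2, -0.092 without HDAC6 knockout replicate 3, -0.33 without HDAC6 knockout replicate 1 and -0.30 without high-fat replicate 1. In that comparison 0 members passed, against 0.145% of all genes, and 0 had an unadjusted p under 0.05, against 7.27%. High-fat livers averaged higher than HDAC9 knockout livers for 6 of 7 members (median 0.32), as 51.4% of all genes did. The median was 0.11 without HDAC9 knockout replicate 2, 0.62 without HDAC9 knockout replicate 1 and 0.48 without high-fat replicate 2. It was 0.097 for the 4 members left after removing shared-suffix probe sets. There 0 members passed, against 0.436% of all genes, and 0 had an unadjusted p under 0.05, against 8.1%. A single limma F test over the 4 groups called 0 of 7 members, against 0.331% of all genes. Its adjusted p was 0.204 for Ciita and 0.617 to 0.912 for the others, and 2 members, Ciita and H2-Eb1, had an unadjusted p under 0.05, as 7.48% of all genes had.

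H2-Ab1, H2-Aa and Ciita were each read by several probe sets, and the probe sets of a gene did not always read alike. For H2-Ab1, chow replicate 2 stood 1.06 above the mean of the other chow arrays on probe set 1450648_s_at. It stood 0.017 above on 1451721_a_at and 0.013 above on 1425477_x_at. On 1451721_a_at the chow arrays read 6.50, 6.51 and 6.49, below the 7.17, 7.48 and 7.69 of the HDAC6 knockout. That probe set was 0.95 higher in the HDAC6 knockout (SE 0.245, limma adjusted p = 0.663 over all probe sets), against 0.60 on the probe set that stood for the gene. Between HDAC6 knockout and high-fat livers 1451721_a_at and 1425477_x_at overlapped, where 1450648_s_at did not. For H2-Aa, chow replicate 2 stood 1.21 above on 1435290_x_at and 0.61 above on 1452431_s_at, and the 2 probe sets had a Pearson r of 0.96 over the 12 arrays. For Ciita it stood 0.021 above on 1421211_a_at and differed by -0.37 on 1421210_at. The Ciita probe sets had a Pearson r of 0.65 over 12 arrays and 0.58 without chow replicate 2. Cd74, H2-Eb1, H2-DMa and Ctss had a single probe set each, on which chow replicate 2 stood 1.05, 0.83, 0.71 and 0.48 above the other chow arrays. Away from that array the H2-Ab1 probe sets kept a common course, with a Pearson r between 0.934 and 0.982 over 11 arrays, against 0.77 to 0.94 over all 12. Which probe set reads chow replicate 2 rightly cannot be settled from these values. The suffixes _s_at and _x_at mark probe sets whose probes also match other transcripts. Probe sets ending in _a_at were removed along with these wherever shared-suffix probe sets were removed.

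**Figure D3:**
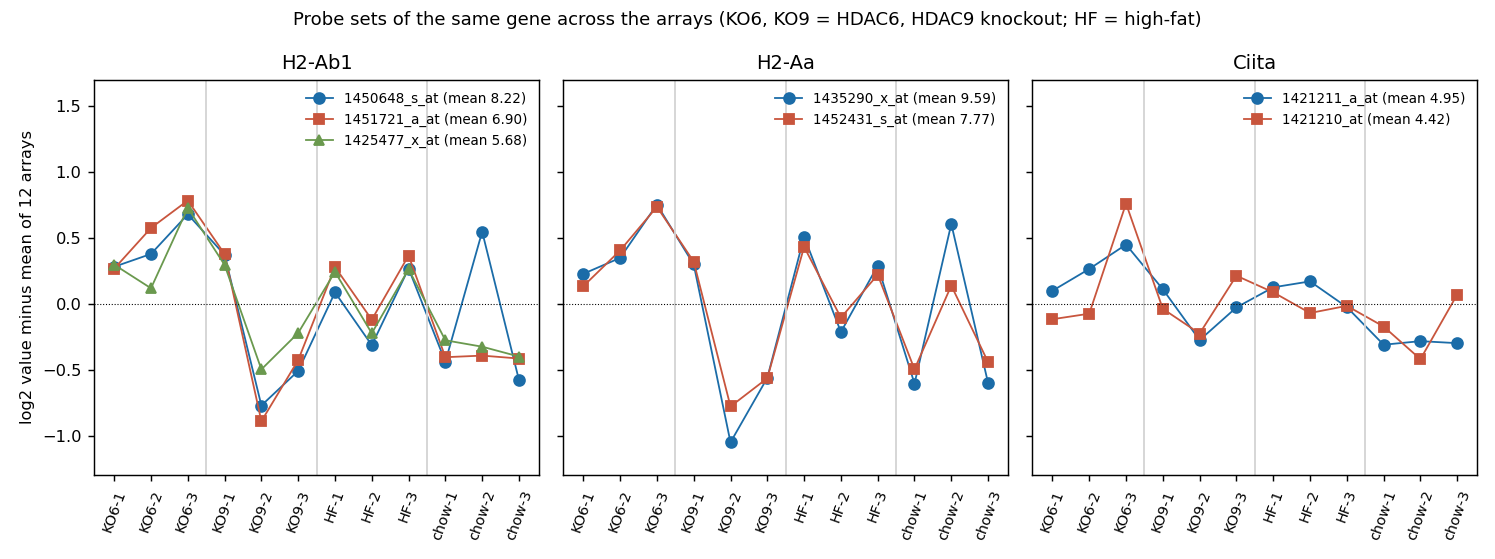
Log2 value minus the probe set's own mean over 12 arrays, for each probe set of H2-Ab1, H2-Aa and Ciita, array by array. The H2-Ab1 lines run together on 11 arrays and part on chow replicate 2, where 1450648_s_at is high and the other two lie with the chow arrays beside it.

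Across the 12 arrays Cd74, H2-Aa, H2-Ab1 and H2-Eb1 were high or low on the same arrays, whatever the group. Their 6 pairs had a Pearson r of 0.953 to 0.980 and a Spearman rho of 0.867 to 0.986, and after group means were taken out r was 0.956 to 0.987. Ciita followed them less closely, with r of 0.596 to 0.704 and 0.458 to 0.557 after group means were taken out. Ctss had r of 0.498 to 0.663 with them, and 0.719 to 0.793 after group means were taken out. These are descriptions of 12 arrays, which share RNA, labelling and normalization for all genes at once. In RNA from whole liver, fewer cells of a type and less RNA per cell cannot be told apart.

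Genes outside the set with a like course were ranked by Pearson r, over the 12 arrays, to the mean of the 5 members whose level lay above the median of all genes (Cd74, H2-Aa, H2-Ab1, H2-Eb1 and Ctss). The highest were Gbp2b (r = 0.904), a guanylate-binding protein that interferon induces; Slamf8 (0.873), a receptor of the SLAM family found on myeloid cells; Macrod1 (0.852), a mono-ADP-ribose hydrolase; Ap1s2 (0.849), a subunit of the AP-1 clathrin adaptor; and Hamp (0.841), which encodes the iron hormone hepcidin. Gbp2b read 6.03, 6.37 and 6.36 in HDAC6 knockout livers, 6.03, 5.34 and 4.62 in HDAC9 knockout livers, 6.19, 5.27 and 5.77 in high-fat livers, and 4.74, 6.23 and 4.36 in chow livers. Chow replicate 2 was again the high chow array, and HDAC9 knockout replicate 1 the high one of its group. After group means were taken out these 5 genes had r of 0.816 to 0.864. They are the upper end of a ranking of all genes and carry no test.

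The rest of the class II pathway was split between higher and lower. Of 22 further genes (partners of H2-DM and H2-O, the factors at the X and Y boxes, lysosomal proteases and costimulators), 19 were measured. Of these 11 averaged higher and 8 lower in HDAC6 knockout than in chow livers, 10 and 9 in HDAC9 knockout livers, and 10 and 9 in high-fat livers, and 0 passed limma's test in any of the 3. Their median log2 differences were 0.06, 0.03 and 0.04. Of all genes, 45.6%, 46% and 47.2% averaged higher in these comparisons, and 5.77%, 6.08% and 8.48% had an unadjusted p under 0.05. Of those with the smallest p, Ifi30, the lysosomal thiol reductase, was higher by 0.27 in the HDAC6 knockout (limma adjusted p = 0.839) and by 0.30 in the high-fat group (adjusted p = 0.484). H2-Ea differed by -0.34 in the HDAC6 knockout (adjusted p = 0.727); C57BL/6 mice are known to lack a working H2-Ea, and the other two H2-Ea probe sets read 2.22 to 2.89 on all arrays. The probe set 1449580_s_at, shared by H2-DMb1 and H2-DMb2 (the partners of H2-DMa) and so outside these counts, was higher by 0.42 in the HDAC6 knockout (SE 0.147, limma adjusted p = 0.780 over all probe sets), by 0.08 in the HDAC9 knockout and by 0.42 in the high-fat group (adjusted p = 0.431). The second shared probe set, 1418638_at, differed by 0.13, -0.17 and 0.07. Rfxap, a subunit of the RFX complex at the X box, differed by -0.34 in the HDAC9 knockout (adjusted p = 0.792), Lgmn, a lysosomal protease, by 0.26 there (adjusted p = 0.840), and Nfya, a subunit of the factor at the Y box, by -0.23 in the high-fat group (adjusted p = 0.656). The unadjusted p was under 0.05 for H2-Ea and Ifi30 in the HDAC6 knockout, Rfxap in the HDAC9 knockout and Ifi30 in the high-fat group.

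Class I presentation and interferon-gamma genes were set beside the members, since interferon-gamma is known to induce many of them. Of 14 measured class I genes, 9 averaged higher and 5 lower in HDAC6 knockout than in chow livers, 10 and 4 in HDAC9 knockout livers, and 9 and 5 in high-fat livers, with 0 passing limma's test and 3, 1 and 7 at an unadjusted p under 0.05. Psmb9, an immunoproteasome subunit, was higher by 0.49 in the HDAC6 knockout (adjusted p = 0.559), by 0.48 in the HDAC9 knockout (adjusted p = 0.403) and by 0.65 in the high-fat group (adjusted p = 0.0577). Psmb8, another such subunit, was higher by 0.48 in the high-fat group (adjusted p = 0.174) and the class I chain H2-D1 by 0.21 in the HDAC9 knockout (adjusted p = 0.819), while Pdia3, a chaperone of peptide loading, differed by -0.32 in the HDAC6 knockout (adjusted p = 0.760). Of 17 measured interferon-gamma genes, 12 averaged higher and 5 lower in HDAC6 knockout livers, 7 and 10 in HDAC9 knockout livers, and 14 and 3 in high-fat livers. At an unadjusted p under 0.05 were 3, 0 and 3 of them. Beside both lists, 5.77%, 6.08% and 8.48% of all genes had such a p in the 3 comparisons. The shares of all genes with a higher mean were 45.6%, 46% and 47.2%. Gbp3, an interferon-induced guanylate-binding protein, rose in high-fat livers (8.37, 8.66 and 8.79, against 7.40, 7.88 and 7.98 in chow livers; log2 difference 0.86, SE 0.163, limma adjusted p = 0.0477) and was the only gene of these lists to pass. With 1 array left out its difference was 0.68 to 0.98 and its limma adjusted p 0.0375 to 0.213; it passed only when HDAC9 knockout replicate 2 or 3 or chow replicate 3 was the array left out. Cxcl9, a chemokine that draws T cells, was higher by 0.68 in the HDAC6 knockout (adjusted p = 0.727) and by 0.71 in the high-fat group (adjusted p = 0.305). Gbp2, a guanylate-binding protein like Gbp3, was higher by 0.43 in the HDAC6 knockout (adjusted p = 0.759). In the HDAC9 knockout the smallest p belonged to Iigp1, an interferon-induced GTPase (-0.11, adjusted p = 0.875), and to Ifng itself (-0.12, adjusted p = 0.876), which read 2.68 to 3.02 on all arrays.

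Markers of cells that can carry class II were set beside the members array by array. The members' median, as log2 value minus each gene's mean over 12 arrays, was 0.10, 0.29 and 0.65 in HDAC6 knockout livers, 0.27, -0.69 and -0.29 in HDAC9 knockout livers, 0.13, -0.21 and 0.19 in high-fat livers, and -0.44, 0.37 and -0.50 in chow livers. The median of 15 Kupffer cell and macrophage markers was 0.01, 0.09 and -0.05 in HDAC6 knockout livers, 0.13, 0.20 and -0.11 in HDAC9 knockout livers, 0.28, 0.14 and 0.0096 in high-fat livers, and -0.22, -0.03 and -0.38 in chow livers. On HDAC9 knockout replicate 2 the members were at their lowest and the Kupffer cell markers were at 0.20. Kupffer cell markers averaged higher than in chow livers for 13 of 15 genes in the HDAC6 knockout (median 0.25), 15 of 15 in the HDAC9 knockout (median 0.32) and 14 of 15 in the high-fat group (median 0.35). None passed limma's test (0 of 15 each), and 4, 8 and 8 had an unadjusted p under 0.05. Of all genes, 5.77%, 6.08% and 8.48% had such a p, and 45.6%, 46% and 47.2% averaged higher. Marco, a scavenger receptor, was higher by 0.97 in the HDAC6 knockout (adjusted p = 0.349) and by 1.04 in the high-fat group (adjusted p = 0.0930), and Cd5l, a secreted macrophage protein, by 0.58 in the HDAC9 knockout (adjusted p = 0.229). Mpeg1, a pore-forming protein of macrophages, was higher by 0.53 in the HDAC6 knockout (adjusted p = 0.662), Cybb, a subunit of the phagocyte oxidase, by 0.53 in the HDAC9 knockout (adjusted p = 0.438) and Cd68, a lysosomal membrane protein, by 0.60 in the high-fat group (adjusted p = 0.101). All the genes just named averaged higher than in chow livers in each of the 3 groups, which share the same chow arrays. Cd5l was higher by 0.55 in the high-fat group and Cybb by 0.44 in the HDAC6 knockout. Mpeg1 was higher by 0.45 in the HDAC9 knockout and by 0.50 in the high-fat group. Marco averaged 6.69 in the HDAC9 knockout, against 6.16 in chow livers. The part of macrophage number in the class II values was not tested.

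B cells and dendritic cells also carry class II. The median of 8 B cell markers ran from -0.21 to 0.35, with HDAC6 knockout replicate 3 highest, as for the members, and that of 10 dendritic cell markers from -0.16 to 0.19, with the same array highest. Of the 8 B cell markers 5 averaged higher in HDAC6 knockout than in chow livers, 2 in HDAC9 knockout livers and 7 in high-fat livers. For the 10 dendritic cell markers these counts were 6, 7 and 8. Of all genes, 45.6%, 46% and 47.2% averaged higher, and 5.77%, 6.08% and 8.48% had an unadjusted p under 0.05. Ighm, the heavy chain of IgM, was higher by 0.76 in the HDAC6 knockout (limma adjusted p = 0.837), by 1.07 in the HDAC9 knockout (adjusted p = 0.548) and by 0.69 in the high-fat group (adjusted p = 0.587). Against chow 0 markers of either list passed limma's test; Ighm in each comparison, and among dendritic cell markers Ccr7 in the HDAC9 knockout (-0.29) and Clec10a in the high-fat group (0.30), had an unadjusted p under 0.05. The B cell receptor chain Cd79a differed by -0.26 in the HDAC6 knockout and -0.28 in the HDAC9 knockout, and its partner Cd79b by 0.29 in the high-fat group. Among dendritic cell markers Klrd1 differed by 0.21 in the HDAC6 knockout and 0.38 in the high-fat group, Xcr1 by 0.13 in the HDAC6 knockout and Clec10a by 0.10 in the HDAC9 knockout. The mean level of the 8 B cell markers was 4.75 to 5.26 and that of the 10 dendritic cell markers 4.50 to 4.81, which is within the range of genes that liver is not known to use. Of those genes, only Prm1 (6.93) averaged above 4.55. Sinusoidal endothelial markers had medians between -0.10 and 0.10 on every array.

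**Figure D4:**
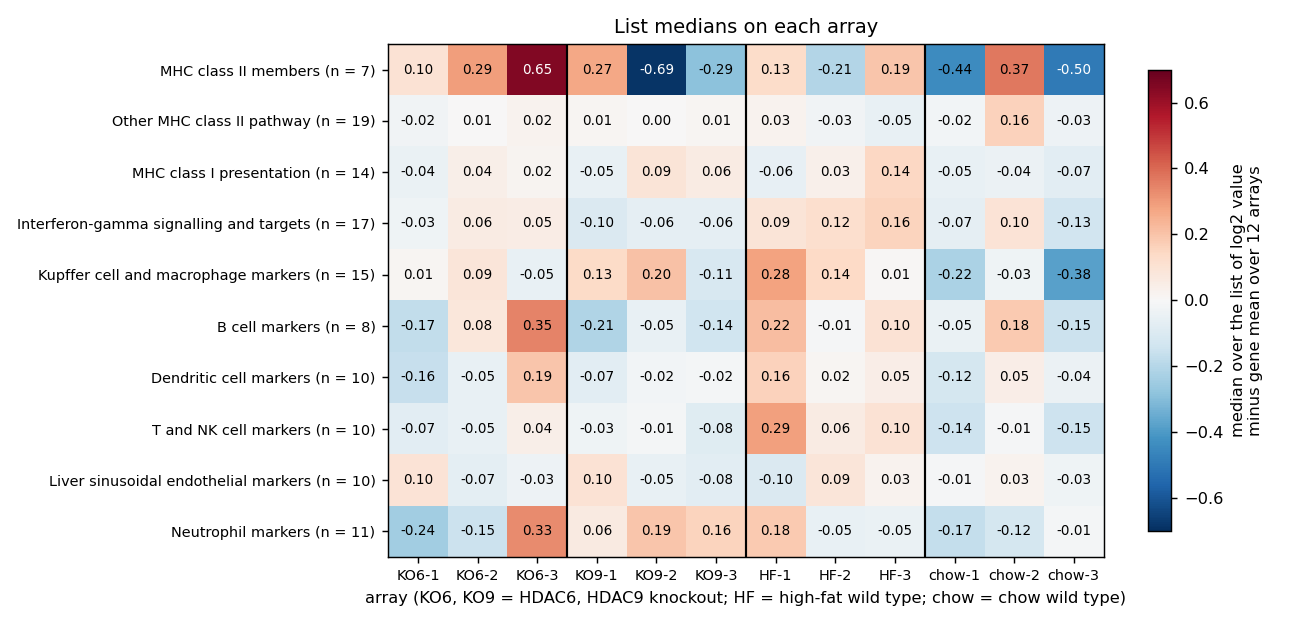
Median log2 value minus gene mean over 12 arrays for each gene list (rows, with the number of genes measured) on each array (columns). The class II row runs from -0.69 on HDAC9 knockout replicate 2 to 0.65 on HDAC6 knockout replicate 3, and the Kupffer cell row from -0.38 on chow replicate 3 to 0.28 on high-fat replicate 1.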

How the data were processed

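The authors deposited log2 expression per probe set after RMA (robust multi-array average), per the submitters' processing notes; the software and chip definition are not given in the sources used here. The labels state 100 ng of input RNA and a biotin label. Of 22626 probe sets, a platform table gave 20380 a single symbol, 691 several and 1555 none. For each gene the single-symbol probe set of highest mean was used (12393 genes); no values were renormalized. The comparisons were fitted with limma 3.58.1 in R 4.3.3 (4 group means, 12 arrays, mean-variance trend, 14.32 degrees of freedom, median SE 0.124), two-sided, with Benjamini-Hochberg adjustment over all genes; the number of arrays limits the precision. Intervals are 95%. The fit was tested on simulated data.

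Named are the members, the 2 genes of smallest p against chow in the pathway, Kupffer cell, B cell and dendritic cell lists (of the other cell lists only Il1b and Nkg7), the 5 genes most like the members' mean, and Hdac6 and Hdac9. Psmb9, Cxcl9, Marco, Cd5l, Mpeg1, Cybb, Ifi30 and Ighm are named again in other comparisons beside these. The members and the 13 lists were chosen with earlier results of these data known. The H2-DMb probe sets were added because they read partners of a member. The motif pieces and the 9 genes taken as unexpressed were chosen after the values were seen. Figures used Python 3.11.15, pandas 2.3.3 and matplotlib 3.10.9.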

Additional observations from a re-analysis of the deposited data

How the results depend on the processing

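In every alternative tried, 0 members passed in any comparison or in the F test (quantile normalization, median centring, other variance priors, filters at the 25th and 50th percentiles, the mean of all probe sets, every probe set, shared-suffix probe sets removed, only the 2 groups compared, a replicate block, each array left out, and, added after seeing the data, chow replicate 2 and HDAC9 knockout replicate 2 left out together). Of 726 member differences under alternatives, 701 kept their direction and 25 turned, and the cause was not tested. The variance priors, the filters, the replicate block and the fits of only the 2 groups compared leave a difference unchanged. Its direction could not turn there, so those values add nothing to the 701. The same holds for Cd74, H2-Eb1, H2-DMa and Ctss, with a single probe set each, under the mean of all probe sets and every probe set. It holds for H2-Eb1, H2-DMa and Ctss with shared-suffix probe sets removed, and for high-fat against HDAC6 knockout with the 2 arrays left out together. The values that could turn were not counted apart, so 701 of 726 is no measure of stability. With 1 array left out, HDAC9 knockout against chow ran from -0.24 to 0.39 for Cd74, from -0.61 to 0.17 for H2-Aa, from -0.48 to 0.21 for H2-Ab1, from -0.44 to 0.15 for H2-Eb1 and from -0.17 to 0.23 for H2-DMa. High-fat against chow ran from -0.040 to 0.52 for H2-Ab1, HDAC9 against HDAC6 knockout from -0.010 to 0.11 for Ctss, and high-fat against HDAC6 knockout from -0.15 to 0.022 for H2-DMa and from -0.088 to 0.034 for Ctss. With both arrays left out, HDAC9 knockout against chow was 0.47 for H2-Aa, 0.44 for H2-Ab1, 0.36 for H2-Eb1 and 0.25 for H2-DMa. H2-Ab1 was 0.046 with the mean of its probe sets, and H2-DMa 0.000342 with quantile normalization. With every probe set on its own, a gene was taken from its probe set of smallest p. For H2-Ab1 that was 1425477_x_at at 0.19, while 1451721_a_at was at 0.091 and 1450648_s_at at -0.15.

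Counts over all genes moved with the setting: 1 to 4 for HDAC6 knockout against chow (2 as reported), 0 to 17 for HDAC9 knockout (12), 13 to 43 for high-fat (36), 1 to 4 for HDAC9 against HDAC6 knockout (1), 8 to 56 and 9 to 97 for high-fat against the HDAC6 (18) and HDAC9 (54) knockouts, and 15 to 70 for the F test (41). Replicate numbers are shared between groups in titles only: deviations of same-numbered arrays correlated at -0.15 to 0.15, so the numbers are not taken as pairs. With them as a replicate block 0 members passed, the lowest adjusted p was 0.339, and 3, 17 and 33 genes passed against chow. Signals near those of unexpressed genes limit Ciita and H2-Ob.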

Other observations

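Of 11 neutrophil genes, 7 averaged higher in HDAC6 knockout than in chow livers, 11 in HDAC9 knockout livers and 9 in high-fat livers. Beside this list and those below, 45.6%, 46% and 47.2% of all genes averaged higher in the 3 comparisons. An unadjusted p under 0.05 was found for 5.77%, 6.08% and 8.48% of all genes. Il1b, the inflammatory cytokine, averaged 6.09 in HDAC6 knockout, 6.42 in HDAC9 knockout and 6.07 in high-fat livers, against 5.58 in chow livers. Among the 3 comparisons with chow it passed only in HDAC9 knockout livers (log2 difference 0.84, SE 0.127, limma adjusted p = 0.0377). With 1 array left out the difference was 0.79 to 0.95 and the limma adjusted p 0.0189 to 0.152; it passed when HDAC6 knockout replicate 1 or 3, high-fat replicate 1 or chow replicate 2 was left out, and not with any other array left out. All 10 measured T and NK cell genes averaged higher in high-fat than in chow livers, and 6 of 10 did in each knockout; Nkg7, a granule protein of cytotoxic cells, was higher by 0.45 in high-fat livers (adjusted p = 0.315). Of 10 sinusoidal endothelial genes, 3 averaged higher in each knockout and 5 in high-fat livers, with 0 passing limma's test and 0, 2 and 0 at an unadjusted p under 0.05. Of 5 measured cholangiocyte genes, 3 averaged higher in HDAC6 knockout livers, 5 in HDAC9 knockout livers and 0 in high-fat livers, and of 8 hepatocyte genes 4, 3 and 2 did, with 0 of either list passing. The 11 exocrine pancreas genes averaged higher in HDAC9 knockout than in chow livers with a median of 1.74, of which 8 had an unadjusted p under 0.05 and 0 passed. Their array medians there were 0.33, 3.72 and -0.43. Without HDAC9 knockout replicate 2 the median difference was 0.44, with 10 of 11 higher. Of the 11, 3 then had an unadjusted p under 0.05, as 5.88% of all genes had. Of the 11, 4 averaged higher in HDAC6 knockout livers and 8 in high-fat livers.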
